A study of Mus musculus with 30 samples.

Results

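The 20 AOM/DSS libraries of scraped mouse colon differed widely in *H2-Ab1*, the beta chain of the MHC class II molecule I-A. To ask what moved with it, the libraries were split on this gene. In each of the 4 AOM/DSS groups the 2 libraries with the highest *H2-Ab1* level and the 2 with the lowest were taken, which gave 8 H2-Ab1-high and 8 H2-Ab1-low libraries, 16 of the 30 libraries of the series. The 4 middle libraries, 1 per group, entered only the fits over all 20 AOM/DSS libraries, and the 10 vehicle libraries gave the background. The libraries were thus chosen by their measured *H2-Ab1* level and not by a treatment. The level was in CPM, the *H2-Ab1* count over the library's total count on genes, scaled alike in each library.

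The mice were wild-type C57BL/6J females and males that were 5 to 10 weeks old at the start. The treated mice received 1 injection of azoxymethane (AOM, a carcinogen that mutates colon epithelium) at 10 mg/kg and 3 cycles of 2.5% dextran sulfate sodium (DSS, which injures the mucosa and causes colitis) in the drinking water, and were killed after 9 or 15 weeks. The groups were thus female and male at 9 weeks and female and male at 15 weeks, with 5 mice each. The 2 vehicle groups, 5 females and 5 males, were labelled 9 weeks. Each library came from the epithelial layer of 1 colon, scraped off and sequenced as poly(A) RNA, so cells of the lamina propria that came off with the scrape were read together with the epithelium. In such bulk samples, fewer cells of a type and less RNA per cell cannot be told apart.

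MHC class II molecules carry peptides from ingested material to the cell surface, where CD4+ T cells read them. The alpha and beta chains are assembled on the invariant chain Cd74, the exchange factor H2-DM loads the peptide, and H2-DO, made mainly by B cells, holds H2-DM back. Transcription of all these genes depends on Ciita, a coactivator that is recruited by RFX, CREB and NF-Y proteins bound to their promoters. B cells and dendritic cells express Ciita without a further signal, while intestinal epithelial cells switch it on in response to interferon gamma. Interferon gamma also induces the guanylate-binding proteins and the other interferon GTPases, the chemokine Cxcl9, and the MHC class I and immunoproteasome genes.

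The promoters of the class II genes are shown because their shared Y box, the CCAAT box that NF-Y binds, is a textbook feature of this gene family. The windows are from RefSeq on GRCm38.p6 and run from 250 bases before to 50 after the start site, 5′ to 3′ on the strand of the gene. Of 12 class II and interferon genes looked up, 10 had a window. *H2-Ab1* and *Ciita* had none, so their promoters were not searched. Capitals mark a CCAAT box, searched as CCAAT on both strands, and a GAS element, searched as TTCNNNGAA, which reads alike on both strands. The 5 class II promoters read as follows.
H2-Aa, chr17:34287774-34288073, minus strand: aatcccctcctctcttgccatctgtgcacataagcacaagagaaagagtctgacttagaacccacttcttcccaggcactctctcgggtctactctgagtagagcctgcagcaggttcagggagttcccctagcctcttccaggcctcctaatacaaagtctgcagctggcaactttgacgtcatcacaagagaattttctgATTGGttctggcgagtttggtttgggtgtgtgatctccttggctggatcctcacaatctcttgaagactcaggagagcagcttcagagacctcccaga
H2-Eb1, chr17:34305617-34305916, plus strand: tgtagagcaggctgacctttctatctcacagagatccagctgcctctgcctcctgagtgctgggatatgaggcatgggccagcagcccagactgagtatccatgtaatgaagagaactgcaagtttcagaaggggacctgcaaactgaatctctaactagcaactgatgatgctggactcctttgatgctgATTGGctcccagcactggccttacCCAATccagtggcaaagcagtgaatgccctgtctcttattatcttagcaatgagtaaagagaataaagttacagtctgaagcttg
H2-DMb1, chr17:34152941-34153240, plus strand: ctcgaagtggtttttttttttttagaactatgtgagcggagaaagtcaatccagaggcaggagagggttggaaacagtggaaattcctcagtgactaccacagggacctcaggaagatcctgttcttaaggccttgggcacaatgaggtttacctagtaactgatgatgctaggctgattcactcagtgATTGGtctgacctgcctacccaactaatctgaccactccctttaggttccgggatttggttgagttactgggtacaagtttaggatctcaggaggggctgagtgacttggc
H2-DMb2, chr17:34144999-34145298, plus strand: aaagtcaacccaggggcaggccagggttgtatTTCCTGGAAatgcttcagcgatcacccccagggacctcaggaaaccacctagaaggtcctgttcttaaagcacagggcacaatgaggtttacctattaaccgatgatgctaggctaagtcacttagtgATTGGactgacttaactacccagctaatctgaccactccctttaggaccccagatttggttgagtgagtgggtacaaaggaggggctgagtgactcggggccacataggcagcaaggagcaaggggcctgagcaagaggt
H2-Ob, chr17:34238655-34238954, plus strand: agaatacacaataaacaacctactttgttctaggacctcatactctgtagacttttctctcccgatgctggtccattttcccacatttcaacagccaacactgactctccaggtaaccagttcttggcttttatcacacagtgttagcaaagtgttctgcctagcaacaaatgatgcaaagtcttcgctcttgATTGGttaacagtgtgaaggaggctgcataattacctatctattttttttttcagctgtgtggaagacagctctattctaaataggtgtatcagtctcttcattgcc
The CCAAT box was on the reverse strand in H2-Aa, H2-DMb1, H2-DMb2 and H2-Ob, and its first base lay 48, 61, 90 and 57 bases before the start site, respectively. H2-Eb1 held 2 boxes, 59 bases before the start site on the reverse strand and 35 bases before it on the forward strand. Of the 32851 windows in the table, 37.4% held a CCAAT on either strand. H2-DMb2 also held a GAS match 218 bases before the start site, against 8.3% of all windows. *H2-Eb2* and *H2-Oa* held 1 CCAAT each, 100 and 43 bases before the start site. *H2-DMa* had 2 windows, both upstream of the position that the deposited annotation gives it, of which the first held 0 CCAAT and the second 1, 198 bases before the start site, so they are not printed. The box was thus present in windows of genes that were called in the slope on *H2-Ab1* described below (H2-Aa, H2-Eb1, H2-DMb1) and of genes that were not (H2-DMb2, H2-Ob).

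For comparison, the windows of 2 interferon-responsive genes follow, of which Irf1 is the transcription factor and Gbp2 a guanylate-binding protein. Capitals mark CCAAT, GAS and the core of the interferon-stimulated response element, searched on both strands.
Irf1, chr11:53769764-53770063, plus strand: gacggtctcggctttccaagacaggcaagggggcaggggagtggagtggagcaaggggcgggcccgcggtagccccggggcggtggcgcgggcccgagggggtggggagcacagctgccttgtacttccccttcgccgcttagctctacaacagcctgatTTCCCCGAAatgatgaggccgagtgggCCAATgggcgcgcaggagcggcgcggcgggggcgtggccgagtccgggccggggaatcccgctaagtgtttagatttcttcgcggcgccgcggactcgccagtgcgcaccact
Gbp2, chr3:142620413-142620712, plus strand: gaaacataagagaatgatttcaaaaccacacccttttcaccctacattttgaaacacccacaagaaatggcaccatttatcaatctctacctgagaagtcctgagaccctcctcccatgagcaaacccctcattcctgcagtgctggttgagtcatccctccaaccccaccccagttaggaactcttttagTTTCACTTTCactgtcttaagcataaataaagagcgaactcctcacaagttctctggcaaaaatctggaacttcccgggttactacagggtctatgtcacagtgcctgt
Irf1 held a GAS match 90 bases before the start site and a CCAAT 63 bases before it. Gbp2 held a response element core on the reverse strand 59 bases before the start site, against 3.44% of all windows. A match is a match of letters, and binding was not measured here.

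The *H2-Ab1* level chose the libraries, so it is described with no test. At 9 weeks the 2 high female libraries had 284 and 389 CPM and the 2 low ones 42.7 and 212. The high males at 9 weeks had 320 and 465 CPM and the low males 125 and 212. At 15 weeks the female values were 241 and 255 against 30.3 and 85.0 CPM, and the male values were 143.9 and 251 against 37.7 and 100.9. The split was narrow in places. The middle library lay at 219.95 CPM in the 9-week females, just above the higher of the low libraries (212), and at 138.8 CPM in the 15-week males, just under the lower of the high libraries (143.9). Because each group was split on its own, the ranges of the high set (143.9 to 465 CPM) and of the low set (30.3 to 212 CPM) overlapped between groups. All 20 treated libraries but 2, female replicate 1 (30.3) and male replicate 1 (37.7) at 15 weeks, lay above the highest vehicle library, and vehicle libraries ran from 5.83 to 40.5 CPM.

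**Figure D1:**
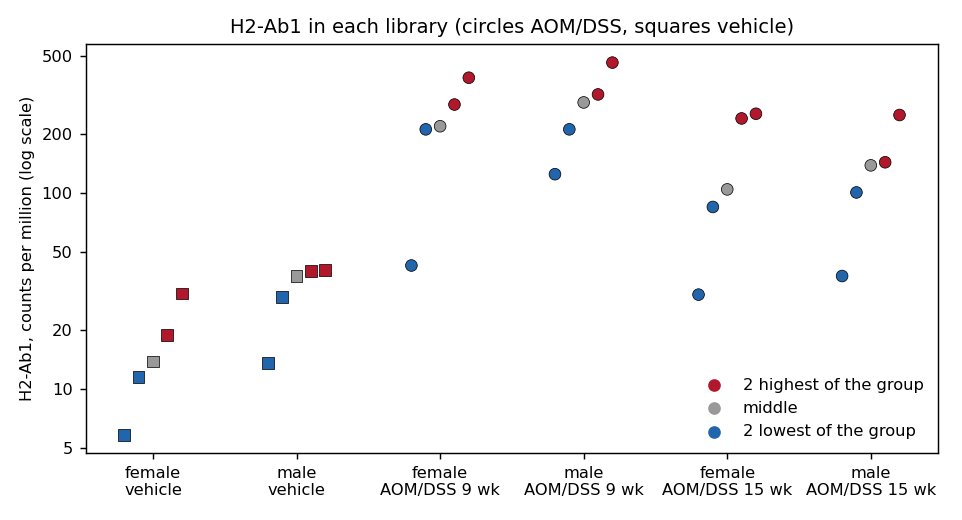
*H2-Ab1* in CPM (log axis) in each of the 30 libraries by group, with circles for AOM/DSS and squares for vehicle libraries. Red marks the 2 highest, blue the 2 lowest and grey the middle library of a group, and the low 9-week female at 42.7 CPM stands well below the other 4 of its group, which lie between 212 and 389.

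The high libraries held 14619526 to 29776556 counts on genes and the low ones 18974134 to 30806392. The share of counts on mitochondrial genes ran from 4.23% to 22.96% in the high set (median 5.07%) and from 4.01% to 14.9% in the low set (median 7.87%). The libraries with the least *H2-Ab1* in 3 of the groups, female replicate 5 at 9 weeks and female and male replicate 1 at 15 weeks, had 11.9%, 14.9% and 11.3%. The part of this share in the results was not tested. The epithelial origin was checked on its markers: *Epcam*, an adhesion molecule of epithelial cells, ran from 383 to 664 FPKM (fragments per kilobase of transcript, scaled to library size, the scale on which levels are compared between genes) in the high set and from 429 to 616 in the low set. *Cd79a*, *Cd3e* and *Csf1r*, which mark B cells, T cells and macrophages, had counts in each of the 30 libraries.

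In the comparison of the 8 high with the 8 low libraries, with group as covariate, edgeR called 0 of 15753 genes higher (0%) and 0 lower (0%). A gene was called when its Benjamini-Hochberg adjusted p was under 0.05, its log2 difference was beyond 0.4 and the mean over at least one of the sets reached 1 FPKM. The smallest adjusted p was 0.262. At an unadjusted p under 0.05 stood 960 genes (6.09%), 471 of them higher (2.99%) and 489 lower (3.1%), and the median log2 difference over all genes was 0.0020. DESeq2 on the same libraries called 18 genes higher and 12 lower. The 20 genes with the smallest p held *H2-Ab1* by construction, and besides it 4 genes of the MHC class II list and 5 of the MHC class I list.

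A second fit, listed among the alternatives, used each library's *H2-Ab1* level instead of the split. It gave for each gene the slope, that is, the log2 change per doubling of *H2-Ab1* CPM over all 20 AOM/DSS libraries, with group as covariate. There, 391 of 16290 genes were called, of which 214 rose with *H2-Ab1* (1.31%) and the rest fell (1.09%). *H2-Ab1* itself, fixed by construction, is among the 214. These calls were made with the log2 limit applied to the slope times 1.74, the mean log2 difference between the high and low libraries of a group. The weight given to this fit was chosen after the split had called none. The number of calls rested on few libraries. Without female replicate 5 at 9 weeks, the low library that stood apart, 55 genes were called, of which 49 rose, and without male replicate 5 at 15 weeks 587 were called, of which 304 rose. For many results of this fit, what was left of them in its 34 alternatives, of which 20 each left out 1 library, is therefore given below.

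Among the MHC class II genes, 1 group was 2.36 to 3.46 times as high in the high as in the low libraries. It held the chains of I-A, the I-E beta chain *H2-Eb1*, the invariant chain, *H2-DMa* and *H2-DMb1*. For the 4 other genes the fold was 1.19 to 1.44. The alpha chain of I-E was not among the listed genes, so the values do not give the level of the I-E molecule. *H2-Aa*, the alpha chain of I-A (chr17:34282744-34287827, minus strand), ran from 145 to 514 FPKM (median 253) in the high libraries, from 13.4 to 236 (median 76.5) in the low ones and from 3.32 to 51.6 in the vehicle libraries. The sets overlapped across groups but not within any of the 4, and the log2 difference was 1.79 ± 0.40 (SE, n = 8 and 8; edgeR adjusted p = 0.346). *H2-Eb1*, the beta chain of I-E (chr17:34305877-34316199, plus strand), ran from 49.5 to 216 FPKM (median 114.5) against 8.08 to 103 (median 39.996), with a log2 difference of 1.59 ± 0.36 (edgeR adjusted p = 0.346). *Cd74* was the most abundant of the 10 genes, with 306 to 1204 FPKM (median 631) in the high and 41.3 to 509 (median 220) in the low libraries. Its log2 difference was 1.62 ± 0.38 (edgeR adjusted p = 0.403).

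The H2-DM chains that exchange the peptide moved in the same direction at a far lower level. *H2-DMa* (chr17:34135182-34139101, plus strand) had 5.71 to 30.3 FPKM (median 16.9) in the high and 3.14 to 14.2 (median 6.73) in the low libraries, a log2 difference of 1.24 ± 0.23 (edgeR adjusted p = 0.262). *H2-DMb1* (chr17:34153072-34160230, plus strand) had 10.9 to 52.0 FPKM (median 26.1) against 2.30 to 21.9 (median 8.03), a log2 difference of 1.61 ± 0.32 (edgeR adjusted p = 0.279). Both stood above the highest vehicle library, at 3.32 and 2.68 FPKM, in each of the 8 high libraries. *H2-DMb1* and *H2-DMb2* are close copies, so the split of their reads between them is uncertain.

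For the 4 remaining class II genes the difference was smaller than its standard error in the main fit of the split. It depended on the setting, and none of the 4 was called in any of the 32 alternatives. There it ran from -0.49 to 1.53 for *H2-DMb2* and from -0.21 to 2.34 for *H2-Ob*. For *H2-Oa* it ran from -0.41 to 2.42 and for *H2-Eb2* from -0.032 to 2.03, beside 1.51 to 3.22 for *H2-Aa*. *H2-DMb2* had 0.727 to 5.25 FPKM (median 2.08) in the high and 0.0941 to 4.603 (median 1.82) in the low libraries, and *H2-Ob*, the beta chain of H2-DO (chr17:34238903-34245907, plus strand), had 0.209 to 3.83 (median 1.69) against 0 to 3.36 (median 1.199). Their log2 differences were 0.25 ± 0.54 and 0.30 ± 0.60, and those of *H2-Oa* and *H2-Eb2* were 0.31 ± 0.65 and 0.53 ± 0.54, each with an edgeR adjusted p that rounds to 1. In the 15-week males the highest values were in a low library: replicate 2 had 4.603 FPKM of *H2-DMb2* and 3.36 of *H2-Ob*, the highest of its group, and also 8.70 FPKM of *Cd79a*, a chain of the B cell receptor. The high library replicate 5 of the same group had 0.727 FPKM of *H2-DMb2*, 0.731 of *H2-Ob* and 1.29 of *Cd79a*, with *H2-Aa* at 213 against 81.0 in replicate 2. *H2-Aa* and *H2-Ob* were thus ordered oppositely in these 2 libraries.

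The class II list held 9 genes besides *H2-Ab1*, and all 9 were tested and higher in the high set, beside 50.6% of all genes. Of the 9, the 5 named first had an unadjusted p under 0.05, beside 2.99% of all genes that were higher at this p. Their median log2 difference was 1.24, beside 0.0020 over all genes. In the same 5 both high libraries lay above both low ones in each of the 4 groups, which held for 33 of all genes (0.209%, *H2-Ab1* included), and 10 genes (0.0635%) had the reverse order in each group. *H2-Aa*, *H2-Eb1*, *Cd74*, *H2-DMa* and *H2-DMb1* rose with *H2-Ab1* in the slope fit, with slopes of 1.22 ± 0.050, 1.05 ± 0.041, 1.11 ± 0.052, 0.71 ± 0.054 and 1.03 ± 0.054 (SE, n = 20). These 5 were called in each of the 34 alternatives, and their slopes ranged from 0.68 to 0.76 for *H2-DMa* and from 1.17 to 1.27 for *H2-Aa*. Since *H2-Ab1* is the partner chain of *H2-Aa* and chose the libraries, these values describe how closely the family moved together.

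*Ciita*, the class II transactivator (chr16:10488178-10527564, plus strand), was low in level. It had 0.999 to 10.1 FPKM (median 3.25) in the high libraries, 0.191 to 4.28 (median 1.18) in the low ones and 0.0474 to 0.721 in the vehicle libraries. The sets overlapped, and the log2 difference was 1.28 ± 0.39 (edgeR adjusted p = 0.697), positive in 4 of 4 groups with values of 1.82 and 1.16 at 9 weeks and 2.15 and 0.88 at 15 weeks, females first. *Ciita* rose in the slope fit, with a slope of 0.99 ± 0.13 (edgeR adjusted p = 4.0e-04), and the slope lay between 0.81 and 1.12 in the 34 alternatives. It did not pass with the neutrophil score as covariate or in the 15-week groups or males alone. Of the 7 other regulators, the RFX subunits, Creb1 and the NF-Y subunits, 0 had an unadjusted p under 0.05 in the split or were called in the slope fit, and the median of the 8 was -0.015.

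**Figure D2:**
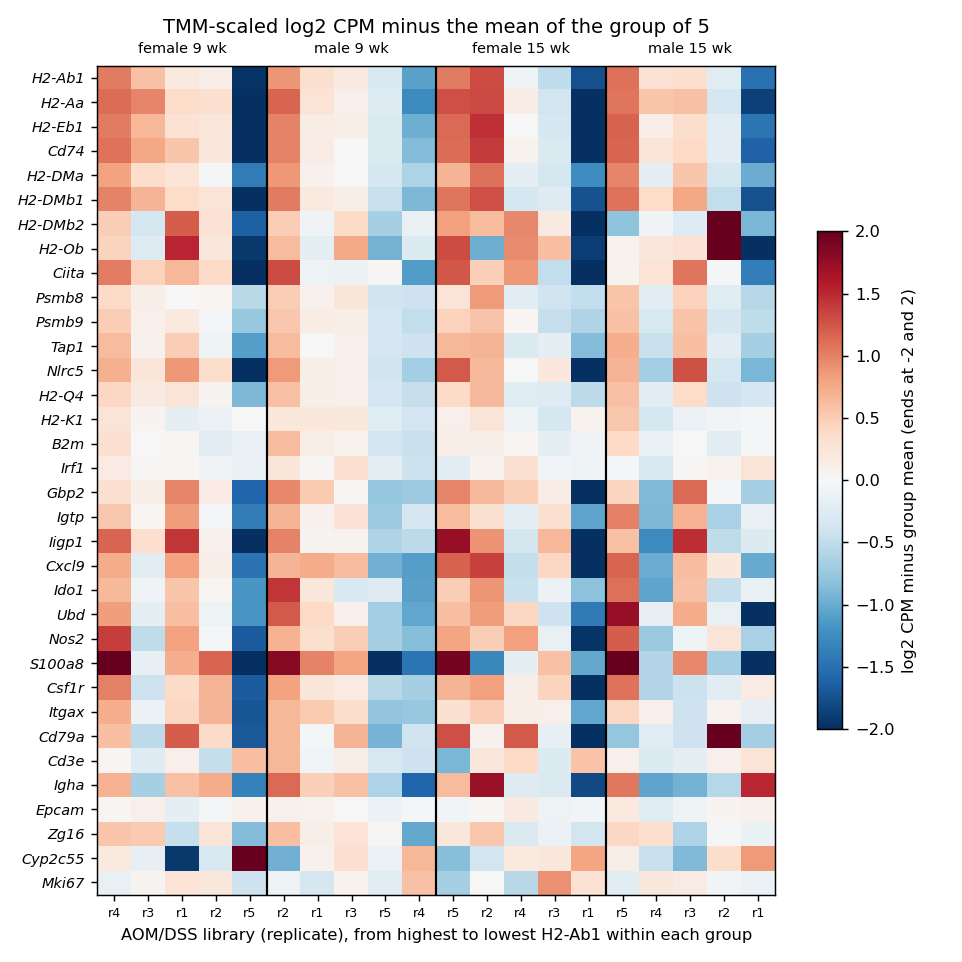
TMM-scaled log2 CPM minus the mean of the group of 5 for 34 genes (rows) in the 20 AOM/DSS libraries (columns), ordered within each group from highest to lowest *H2-Ab1*, with red above and blue below the group mean. The class II genes down to *H2-DMb1* are higher in both high than in both low libraries of each group, whereas *H2-DMb2*, *H2-Ob* and *Cd79a* are not, for example in the 15-week males, where low replicate 2 has the highest values.

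The interferon gamma pathway was taken next, since it is the known inducer of Ciita in epithelium. *Ifng* itself (chr10:118441047-118445892, plus strand) was near the detection limit, with 0 to 3.14 FPKM (median 0.202) in the high and 0 to 0.298 (median 0.0625) in the low libraries. It had 0 counts in 2 of 8 high, 2 of 8 low and 8 of 10 vehicle libraries, and its log2 difference was 2.08 ± 0.95 (edgeR adjusted p = 0.805). *Irf1* (chr11:53770014-53778374, plus strand) hardly differed: 57.2 to 140 FPKM (median 100.3) against 59.98 to 116 (median 89.4), a log2 difference of 0.080 ± 0.10, and it did not pass in the slope fit, where the slope was 0.035 ± 0.050. *Socs1*, the feedback inhibitor, had a log2 difference of 0.56 ± 0.31. Of the 11 genes of the pathway 9 were higher and 2 had an unadjusted p under 0.05, the median was 0.080, and 1 was called in the slope fit.

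The interferon-inducible GTPases, which attack the vacuoles of intracellular microbes, were higher in the high set in 16 of the 16 tested genes, 14 of them at an unadjusted p under 0.05, and the median log2 difference was 0.75. Counts of this kind, here and for the lists that follow, stand beside 50.6% of all genes that were higher, 2.99% that were higher at an unadjusted p under 0.05 and 3.1% that were lower at it. *Gbp2* (chr3:142620602-142638008, plus strand) had 6.30 to 64.2 FPKM (median 19.996) in the high and 1.16 to 25.8 (median 10.3) in the low libraries, a log2 difference of 0.96 ± 0.33 (edgeR adjusted p = 0.741). *Igtp* had 7.03 to 49.8 FPKM (median 23.3) against 3.72 to 24.8 (median 11.4), and *Iigp1* had 1.41 to 30.1 (median 10.4) against 0.223 to 10.5 (median 3.42), with log2 differences of 0.80 ± 0.27 and 1.18 ± 0.47. None of the 16 was ordered in all 4 groups. For *Gbp2* and *Iigp1* the difference was smallest in the 15-week males, at 0.12 and 0.054, where the high library replicate 4 lay low. Over all 20 libraries 11 of the GTPases rose in the slope fit, among them *Gbp2* (0.73 ± 0.14), *Gbp5* (1.17 ± 0.20) and *Iigp1* (0.95 ± 0.21). Without female replicate 5 at 9 weeks 1 was left. Of the 34 alternatives, *Gbp2* did not pass in 6, *Gbp5* in 7 and *Iigp1* in 8.

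Of 18 other interferon gamma-induced genes, 18 were higher in the high set and 9 had an unadjusted p under 0.05, and the median was 0.56. *Ubd*, a ubiquitin-like modifier (chr17:37193892-37196095, plus strand), stood first with 6.01 to 67.9 FPKM (median 23.2) against 1.29 to 25.6 (median 8.25) and a log2 difference of 1.53 ± 0.33 (edgeR adjusted p = 0.311), between 0.95 and 1.96 in the 4 groups. *Cxcl9*, which attracts T cells, had 0.695 to 8.65 FPKM (median 3.88) against 0.254 to 5.14 (median 2.02), a log2 difference of 1.25 ± 0.40. *Ido1*, which breaks down tryptophan, had 2.66 to 84.3 FPKM (median 19.8) against 4.15 to 27.4 (median 10.0), and *Nos2*, the inducible nitric oxide synthase, 3.75 to 59.4 (median 15.5) against 0.948 to 23.3 (median 6.95). Their log2 differences were 1.05 ± 0.30 and 1.18 ± 0.36. In the slope fit 6 of the 18 rose, with *Ubd* at 0.85 ± 0.11, *Cxcl9* at 0.88 ± 0.14, *Cxcl10* at 0.83 ± 0.14, *Nos2* at 0.76 ± 0.13 and *Ido1* at 0.58 ± 0.11, and 4 rose without female replicate 5 at 9 weeks.

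The MHC class I and antigen processing genes showed smaller but more even differences. All 20 were higher in the high set, 14 at an unadjusted p under 0.05, with a median of 0.42, and 6 of the 20 were ordered in all 4 groups. *Psmb9*, a catalytic subunit of the immunoproteasome (chr17:34181988-34187764, minus strand), had the smallest p of all genes, with 12.2 to 51.0 FPKM (median 25.4) in the high and 8.68 to 28.2 (median 12.7) in the low libraries and a log2 difference of 0.78 ± 0.14 (edgeR adjusted p = 0.262). In the 4 groups this difference was 0.69, 0.76, 1.05 and 0.56. *Psmb8*, a further catalytic subunit, *Tap1*, a subunit of the peptide transporter, and *Nlrc5*, the transactivator of class I genes, had log2 differences of 0.71 ± 0.14, 0.87 ± 0.19 and 1.06 ± 0.35. The heavy chain *H2-K1* and the light chain *B2m*, both abundant, differed least among those named, by 0.31 ± 0.12 and 0.42 ± 0.12 at medians of 628 against 459 FPKM and 792 against 612. *H2-Q4* differed by 0.74 ± 0.14, but the H2-Q genes are close copies and their reads may be shared.

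Of the 20 class I genes, 9 rose in the slope fit, with *Psmb9* at 0.41 ± 0.052, *Psmb8* at 0.36 ± 0.054, *Tap1* at 0.52 ± 0.060, *Nlrc5* at 0.85 ± 0.12 and *H2-Q4* at 0.39 ± 0.049. The count stayed at 9 or 10 in each of the 20 fits that left out 1 library, female replicate 5 at 9 weeks included (9). In the 9-week groups alone 10 rose and in females alone 9, against 1 in the 15-week groups alone and 1 in males alone. In the same order the GTPases had 12, 5, 0 and 0 and the other interferon gamma-induced genes 8, 6, 0 and 1. Each of these fits used fewer libraries. *H2-K1* and *B2m* were not called in the slope fit. The slopes of the 5 class II genes were thus 0.71 to 1.22 and those of the immunoproteasome subunits 0.36 and 0.41.

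Type I interferon-stimulated genes, a related set that is induced by interferon alpha and beta, were higher in 17 of 19, with 7 at an unadjusted p under 0.05 and a median of 0.26. *Isg15* had 10.9 to 50.7 FPKM (median 22.4) against 6.61 to 28.5 (median 14.0), a log2 difference of 0.74 ± 0.25, whereas *Ifit1* had 6.69 to 21.1 (median 14.1) against 8.56 to 17.5 (median 14.2), a difference of 0.056 ± 0.25. In the slope fit 4 of the 19 rose, *Isg15* among them at 0.41 ± 0.10 (edgeR adjusted p = 0.029), but *Isg15* did not pass in 12 of the 34 alternatives.

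**Figure D3:**
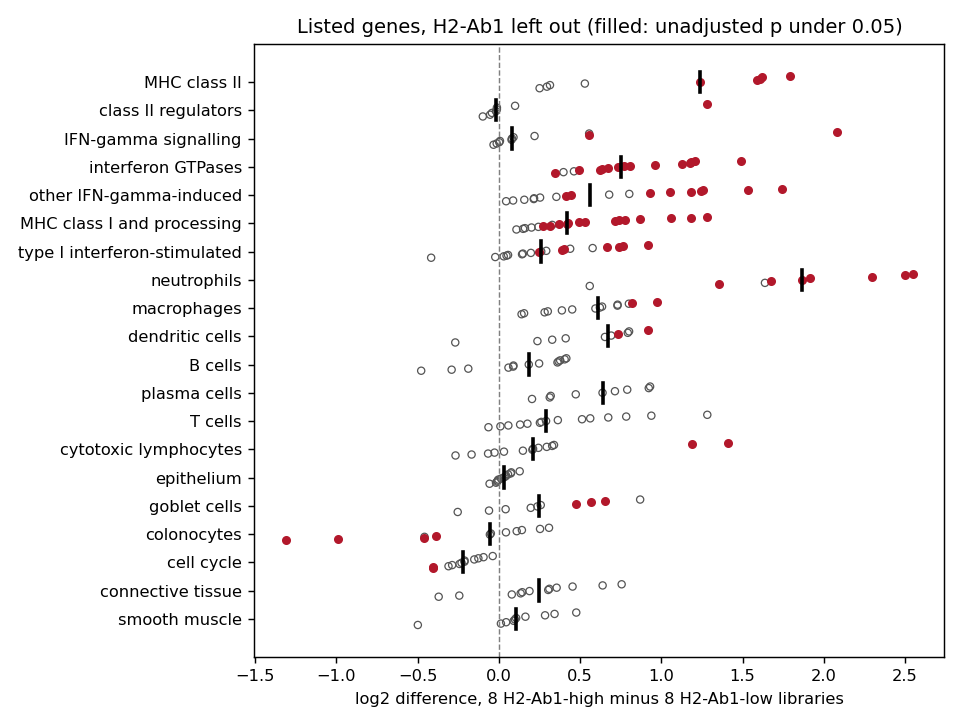
log2 difference between the 8 high and the 8 low libraries (x axis) for the tested genes of 20 lists, with *H2-Ab1* left out, 1 point per gene and a black bar at the median of the list. Filled points have an unadjusted p under 0.05. Each gene of the GTPase, interferon gamma-induced, class I, macrophage, plasma cell and neutrophil lists lies to the right of 0, the B cell (10 of 13 genes above 0) and T cell lists (14 of 15) have medians of 0.18 and 0.29, and epithelium lies close to 0 (8 of 13).

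Cells that present antigen or follow inflammation were read next from their marker lists. Of the B cell genes, 13 of 13 were tested and 10 were higher, with 0 at an unadjusted p under 0.05 and a median of 0.18. *Cd79a* had 1.29 to 9.71 FPKM (median 3.99) in the high and 0.255 to 8.70 (median 2.47) in the low libraries, a log2 difference of 0.40 ± 0.56. The summed level of the list ran from 12.4 to 119 CPM in the high set, from 3.62 to 143.98 in the low set and from 3.76 to 92.7 in the vehicle libraries. The T cell list was higher in 14 of the 15 genes tested and also had 0 at an unadjusted p under 0.05 and a median of 0.29, with *Cd3e*, a chain of the T cell receptor complex, at -0.064 ± 0.27, and a summed level of 12.5 to 44.3 CPM against 13.8 to 34.9. *Ctla4*, an inhibitory receptor of T cells, had 0 to 1.28 FPKM (median 0.458) against 0 to 0.456 (median 0.136), a log2 difference of 1.28 ± 0.74 (edgeR adjusted p = 0.919). Of 14 genes of cytotoxic and intraepithelial lymphocytes 2 had an unadjusted p under 0.05, *Ccl5* (1.41 ± 0.50) and *Cd8b1* (1.19 ± 0.56), and the median was 0.21. In the plasma cell list 9 of 9 were higher and 0 had such a p, at a median of 0.64, and *Igha*, the IgA heavy chain, had 109 to 2367 FPKM against 74.9 to 1037. No gene of these 4 lists was called in the slope fit (0 of each). The median slope was nevertheless 0.68 for the B cell list, beside 0.52 for the GTPases and 0.0055 over all genes. It was 0.15 for the T cell, -0.045 for the cytotoxic and 0.39 for the plasma cell list. The median log2 difference of the B cell list varied between alternatives of the split. It was 1.98 with the highest and lowest library of each group, -0.30 at 15 weeks alone and -0.36 in males alone.

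Myeloid markers followed. The macrophage genes were higher in 14 of 14, with 2 at an unadjusted p under 0.05 and a median of 0.61, and *C1qa*, a complement chain made by resident macrophages, had 0.945 to 12.7 FPKM (median 6.79) against 0.955 to 9.70 (median 3.06). The summed level of the list was 115.3 to 328 CPM in the high, 55.1 to 351 in the low and 45.0 to 273 in the vehicle libraries. *Csf1r*, the receptor for the macrophage growth factor, differed by 0.82 ± 0.38, and *Itgax*, the CD11c integrin of dendritic cells, by 0.73 ± 0.30. Neutrophil genes had the largest median of the 26 lists, 1.87, with 7 of 9 at an unadjusted p under 0.05. *S100a8*, an abundant neutrophil protein, had 0.111 to 40.7 FPKM (median 4.82) in the high and 0 to 9.60 (median 0.795) in the low libraries, a log2 difference of 2.50 ± 0.80 (edgeR adjusted p = 0.697). *Cxcr2*, the chemokine receptor of neutrophils, had 0 counts in 2 high, 4 low and 5 vehicle libraries. *Ly6g* differed from it in pattern, with a median of 75.9 FPKM in vehicle libraries, where *S100a8* was listed at a median of 0, and with 70.1 in the high and 39.7 in the low libraries. The summed level of the list ran from 6.90 to 226 CPM in the high, 10.1 to 157.9 in the low and 12.6 to 196.8 in the vehicle libraries. This sum includes *Ly6g*, so it cannot be read as neutrophil content. In male vehicle replicate 1, for example, *Ly6g* had 5398 counts and *S100a8* 16.

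In the slope fit 3 of the macrophage genes, 1 of the dendritic cell genes and 5 of the neutrophil genes rose, with *Csf1r* at 0.62 ± 0.14, *Itgax* at 0.52 ± 0.11 and *S100a8* at 1.83 ± 0.31. Without female replicate 5 at 9 weeks 0 of the macrophage and 2 of the neutrophil genes were called. Over the 34 alternatives *Csf1r* did not pass in 9, *Itgax* in 11 and *S100a8* in 6. The slope fit was then repeated with the mean log2 CPM of a marker list as a covariate. With the B cell score 5 class II genes, 11 class I genes, 4 GTPases and 7 of the other interferon gamma-induced genes rose. With the T cell score the numbers were 5, 8, 0 and 1, with the macrophage score 5, 6, 0 and 1, and with the neutrophil score 5, 2, 0 and 0. The class II genes were *H2-Aa*, *H2-Eb1*, *Cd74*, *H2-DMa* and *H2-DMb1* each time. Since scores and interferon genes moved together over the libraries, what each contributes cannot be told apart in these fits, and a score covers genes of its own list by construction.

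**Figure D4:**
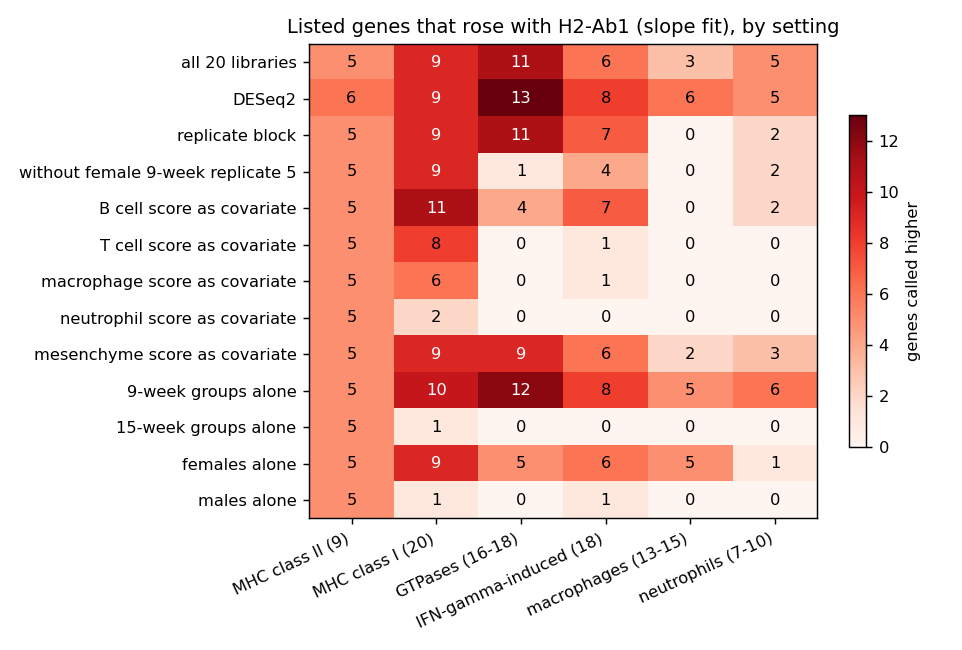
Number of listed genes that rose with *H2-Ab1* in the slope fit, by list (columns, with the number of genes tested) and by setting (rows). The 5 class II genes other than *H2-Ab1* were called in each setting (6 by DESeq2), whereas the GTPases went from 11 to 1 without female replicate 5 at 9 weeks and to 0 with the T cell, macrophage or neutrophil score.

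Epithelial identity was near equal between the sets. The median of 13 epithelial genes was 0.029, with 0 at an unadjusted p under 0.05 and a summed level of 17537 to 25238 CPM in the high and 15908 to 21913 in the low libraries, and *Epcam* differed by 0.043 ± 0.079. Goblet cell genes were higher in 8 of 10, 3 of them at an unadjusted p under 0.05, with a median of 0.25. *Zg16*, a lectin of the mucus layer, had 2026 to 4345.5 FPKM (median 2985) against 1322 to 3621.5 (median 1591), a log2 difference of 0.65 ± 0.17 (edgeR adjusted p = 0.618), and it was ordered in all 4 groups. The 12 colonocyte genes were split in direction, with 5 higher and a median of -0.053. At an unadjusted p under 0.05, 4 of them were lower and 0 higher. *Cyp2c55*, a cytochrome P450 enzyme, had 148 to 708 FPKM (median 495) in the high and 275 to 1802 (median 891) in the low libraries, a log2 difference of -0.99 ± 0.29 (edgeR adjusted p = 0.697). Cell cycle genes were lower in 12 of 12 with a median of -0.22, 2 of them at an unadjusted p under 0.05, and *Mki67*, the proliferation antigen, differed by -0.31 ± 0.18.

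Outside the lists, 5 genes near the top of the order were picked after their values had been seen. *Slc30a10*, a manganese exporter, had 0.218 to 3.94 FPKM (median 1.86) in the high and 0.610 to 21.95 (median 5.09) in the low libraries, a log2 difference of -1.85 ± 0.35 (edgeR adjusted p = 0.262). *Sis*, the disaccharidase sucrase-isomaltase, differed by -2.59 ± 0.60, with 0.0373 to 0.729 FPKM against 0.0643 to 5.08. *Spink1*, a trypsin inhibitor, had 113 to 494 FPKM (median 350) against 35.97 to 403 (median 109) and a log2 difference of 1.34 ± 0.33. The enzymes *Acsf2*, which activates fatty acids, and *Retsat*, which saturates retinol, differed by -0.72 ± 0.16 and -0.60 ± 0.15. With the slope, *Spink1* rose (0.87 ± 0.10, edgeR adjusted p = 1.2e-04) and *Acsf2* (-0.40 ± 0.051), *Retsat* (-0.34 ± 0.049), *Cyp2c55* (-0.59 ± 0.12), *Sis* (-1.29 ± 0.24) and *Slc30a10* (-0.74 ± 0.19) fell. *Cyp2c55*, *Sis* and *Slc30a10* did not pass without female replicate 5 at 9 weeks, which had 1802, 3.41 and 12.2 FPKM of these genes, while *Spink1*, *Acsf2* and *Retsat* did. Over the 34 alternatives *Cyp2c55* did not pass in 8, *Sis* in 6 and *Slc30a10* in 12. For *Spink1*, *Acsf2* and *Retsat* the numbers were 2, 3 and 5.

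Whether the high minus low differences themselves differed was tested by interactions in edgeR. Between 15 and 9 weeks 0 of 16090 genes were called (0%), with 891 at an unadjusted p under 0.05 (5.54%) and DESeq2 called 4 genes with a higher and 3 with a lower difference. Between males and females 0 were called (0%), with 805 (5%) at an unadjusted p under 0.05, and DESeq2 called 5 and 1. *Irf1* had a difference of 0.19 and 0.43 at 9 weeks and of 0.01 and -0.33 at 15 weeks, in females and males (week interaction, edgeR unadjusted p = 0.0186). *Cd79a* and *Igha* were negative in the 15-week males and positive in the other groups: *Cd79a* was 0.68 and 0.98 at 9 weeks and 1.99 and -1.19 at 15 weeks, and *Igha* 0.32 and 1.91, then 2.22 and -0.47.

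**Figure D5:**
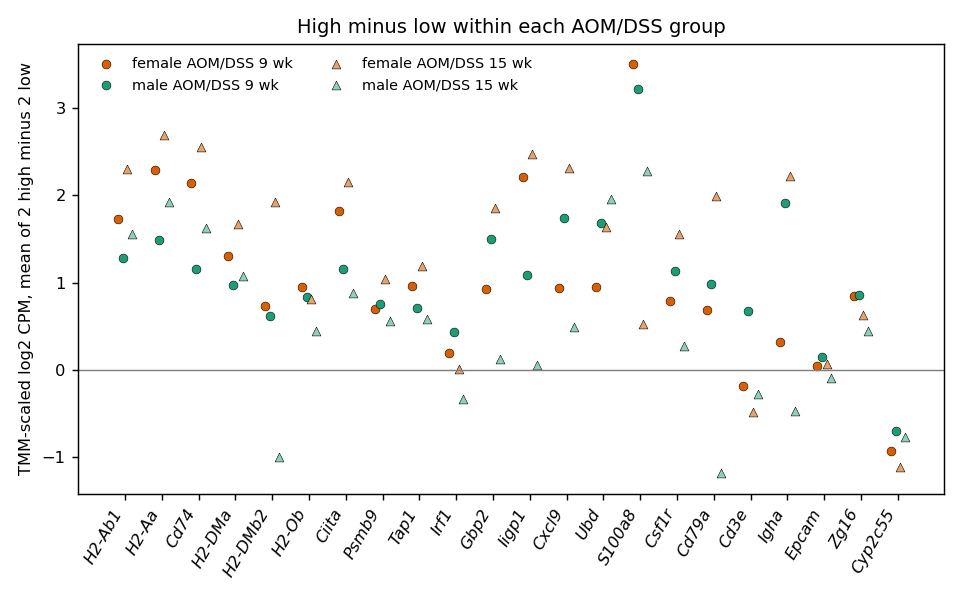
Mean TMM-scaled log2 CPM of the 2 high minus the 2 low libraries within each AOM/DSS group for 22 genes, with circles for 9 and triangles for 15 weeks and orange for females and green for males. *H2-Aa*, *Cd74*, *H2-DMa* and *Psmb9* lie above 0 in each group, and *Cd79a* runs from -1.19 to 1.99.

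The same cut in vehicle-treated mice used libraries that the rule had not touched: in each sex the 2 highest and the 2 lowest for *H2-Ab1*, 4 against 4. edgeR called 94 of 15503 genes higher (0.606%) and 245 lower (1.58%). The class II genes were higher here too, *H2-Aa* by 1.48 ± 0.41 and *H2-Eb1* by 1.23 ± 0.38 on the log2 scale (edgeR adjusted p = 0.0881 and 0.113), with a median of 1.17 over the 9 genes other than *H2-Ab1*. The interferon lists ran differently, with medians of -0.13 for the GTPases, -0.13 for the other interferon gamma-induced genes and -0.27 for class I, where *Psmb9* differed by -0.16 ± 0.17, and 0 of their genes were called. Connective tissue (median 2.39, 9 of 12 called higher) and macrophage genes (median 1.94, 4 of 14 called higher) moved with the cut, and smooth muscle genes had a median of 4.45. The B cell, plasma cell and dendritic cell lists had medians of 1.13, 1.36 and 1.12, with 0 genes called in each. The T cell and cytotoxic lists had medians of -1.03 and -1.79, with 0 and 2 genes called lower. Male vehicle replicate 1, a high library, had 170 FPKM of *Myh11*, smooth muscle myosin, and the 9 others had 0.0452 to 3.89. Without female vehicle replicate 1, 0 genes were called in either direction. The vehicle and AOM/DSS differences were not tested against each other.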

How the data were processed

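Colon scrapes of 30 mice were sequenced as stranded, poly(A)-selected libraries, 1 per mouse and 5 per group. The raw counts, as deposited, were made by the authors with STAR on mm10 (GRCm38) and featureCounts and hold 46078 genes without normalization. The deposited FPKM values are the authors' StringTie estimates, and the deposited TPM values of the same StringTie files were not used. Repeated lines of a gene in an FPKM file (11 to 20 per file) were added. Tool versions other than bcl2fastq 2.20.0.422 are not given in the sources used here. Positions are those of the deposited annotation.

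CPM was the count over the library's total count on genes. Counts were tested with edgeR 4.0.16 (R 4.3.3), with filterByExpr, TMM and quasi-likelihood, after a check on simulated counts. DESeq2 1.42.0, which the study used, was an alternative. A call needed a Benjamini-Hochberg adjusted p under 0.05, a log2 change beyond 0.4 and a mean FPKM of at least 1, the study's limits. Interactions used no FPKM limit. The members, the 26 gene lists and the tests were chosen with earlier results of these data known. Any listed gene may be named, besides the 10 called genes with the largest change each way that were ordered in all 4 groups, of which there were 0, and 5 picked later. Some listed genes are not reported by name here. For the split 18 alternatives were planned, and 15 of the slope fit were added after seeing the data. The 4 listed symbols with several gene IDs took the ID with the most counts. None of the 60 pairs of libraries within groups was a copy (chi-square per degree of freedom 14.8 to 325). Totals ran from 9265804 to 30806392 counts. Duplicate reads were kept, so precision from depth covers counting error only.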

Additional observations from a re-analysis of the deposited data

Results flagged for a closer look

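Of 104 sets of 8 libraries looked at, the high and the low set for each of 52 named genes, 3 held a library whose gap to its nearest neighbour was a large share of the range of the set (over 0.526). Chance alone flags about 1 in 20 such sets. Values are TMM-scaled log2 CPM minus the mean of the library's own group of 5. *Gbp2* in male 15-week replicate 4, a high library, was at -0.88, and the 7 other high libraries lay between 0.12 and 0.98. In female 9-week replicate 5, a low library, *Cxcr2* was at -3.36 (the 7 others -1.43 to 0.03) and *Cyp2c55* at 2.21 (the 7 others -0.31 to 0.86). The same library had the lowest *H2-Ab1* of its group and moved the slope counts the most.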

How the results depend on the processing

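Of the 823 gene values from alternatives of the split other than leaving out a library, 713 kept direction and side of the threshold, 87 passed it and 23 changed sign, and of 832 with a library left out 814, 9 and 9 did. The split called 30 genes by DESeq2 (18 higher), 476 with no filter on low counts (284 higher), 98 with the highest and lowest library of each group (71 higher), 391 as a slope (214 higher), and 6, each of them higher, when libraries were chosen on TMM-scaled *H2-Ab1* or on *H2-Aa*, *H2-Eb1* and *Cd74* (each placed 15 of 16 libraries the same) or with the mesenchyme score. Leaving out 1 library gave 0 to 19 calls, 0 to 12 of them higher, most without female 9-week replicate 2. The slope called 611 genes by DESeq2 (390 higher), 218 with the replicate block (131 higher), 119 with the B cell (82 higher), 69 with the T cell (35 higher), 40 with the macrophage (25 higher), 10 with the neutrophil (10 higher) and 213 with the mesenchyme score (124 higher), 719 at 9 weeks (383 higher), 9 at 15 weeks (8 higher), 286 in females (141 higher) and 14 in males (13 higher), these last 4 fits using fewer libraries. Leaving out 1 library gave 55 to 587 calls, 49 to 304 of them higher, least without female 9-week replicate 5 and most without male 15-week replicate 5. The week interaction called 4 genes with a higher and 3 with a lower difference by DESeq2 and 105 and 84 with no filter, and the sex interaction 5 and 1 by DESeq2 and 102 and 37 with no filter. The vehicle cut called 596 higher and 703 lower by DESeq2, 604 and 710 with no filter, 65 higher and 84 lower as a slope, and 0 to 228 higher and 0 to 333 lower with a library left out. The cause of these changes in number was not tested.

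Values that changed sign had a difference of at most 0.53 in size in the split. With the T cell score *H2-DMb2* was -0.16, *H2-Eb2* -0.032, *H2-Oa* -0.24, *H2-Ob* -0.091, *Irf1* -0.0022, *Ifit1* -0.16 and *Cd79a* -0.095. At 15 weeks alone *H2-DMb2* was -0.15, *H2-Ob* -0.21, *Irf1* -0.14, *Ifit1* -0.13 and *Cd79a* -0.029. In males alone *H2-DMb2* was -0.49, *H2-Oa* -0.41, *H2-Ob* -0.13, *Cd79a* -0.35 and *Cd3e* 0.26. *Ifit1* was -0.39 in females alone and -0.060 with the highest and lowest libraries, and *Cd3e* was 0.047 with the B cell score, 0.015 with the mesenchyme score and 0.20 at 9 weeks. With a library left out *Cd3e* ran from -0.21 to 0.079, *H2-DMb2* from -0.0048 to 0.78, *H2-Ob* from -0.026 to 1.02 and *Ifit1* from -0.17 to 0.19.

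The replicate block, tried because the labels number the replicates alike in each group, called 0 genes in the split, where *Cd3e* was 1.1e-04. Deviations of 30 same-numbered pairs correlated between -0.59 and 0.21, 2 of them over 0.1. Pairs with different numbers were not correlated beside them, so whether the numbers pair the samples was not settled. In the vehicle cut the block could not be fitted. At these depths genes such as *Ifng* and *Cxcr2* had 0 counts in several libraries, and their differences rest on the others.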
